A study of Mus musculus with 32 samples.

Results

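The step from 1 to 4 mM hydrazine was measured at 4 h in FE1 cells, a mouse lung cell line, in 8 of the 32 RNA-seq libraries of a dose series: all 3 libraries of 1 mM and all 5 of 4 mM that were taken straight after the exposure, chosen by their dose and time labels. FE1 is an immortal line grown from the lung of the MutaMouse transgenic mouse, and the labels describe it as lung epithelial. Cells received 0, 1, 4, 6 or 10 mM hydrazine for 4 h and were lysed at once or after another 20 h in which the compound had been washed out, with 3 libraries per group apart from the 5 of 4 mM at 4 h. Beside the 8 libraries, 3 untreated (vehicle) libraries at 4 h give the level below the step, and 3 libraries each of 1 and 4 mM after washout give the same step at the later time. No group carried a genetic change or a second agent according to the labels, and all come from this 1 line. Whether each replicate was a culture of its own is not in the labels, and p-values rest on a spread among libraries that may be only technical.

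Hydrazine is a small reactive base that binds carbonyl groups, among them that of pyridoxal phosphate, the active form of vitamin B6 on which transaminases depend. Cells meet a shortage of amino acids, misfolded protein or heme deficiency with the integrated stress response: kinases of the EIF2AK family slow translation, the transcription factor ATF4 accumulates, and genes of amino acid supply and stress factors such as CHOP are transcribed. Damage to DNA acts through p53 and checkpoint kinases, which hold cells before mitosis. The genes of mitosis are read out late in the cell cycle, many of them through promoter elements called CHR (cell cycle genes homology region) and CCAAT box.

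Poly-A selected, stranded libraries were sequenced as pairs, and the deposited expected counts summed to between 11353095 and 17086721 per library for the 8 libraries. On the first principal component, with 37.5% of the variance of the 4 h libraries of vehicle, 1 and 4 mM, the vehicle libraries lay between -31.17 and -28.69, those of 1 mM between -9.63 and -8.23 and those of 4 mM between 18.43 and 27.33, so the doses fell in order without overlap. On the second, with 11.6%, vehicle library b lay at -8.56 and vehicle libraries a and c at 18.44 and 17.49. The marker RNA went against the epithelial label: of 12 general epithelial markers 1 passed the filter on low counts (Krt7). Their summed level was 1.503 to 1.60 CPM (counts-per-million, for these markers without TMM scaling) at 1 mM and 1.15 to 2.11 CPM at 4 mM. Of 10 alveolar type II markers 2 passed and 5 were at 0 in all 11 libraries, whereas all 7 alveolar type I markers and all 12 mesenchymal markers passed, the latter with summed levels of 22020 to 23370 CPM at 1 mM and 23220 to 25530 CPM at 4 mM. The type I markers summed to 1035 to 1057 CPM at 1 mM and 944 to 1013 CPM at 4 mM, and Cav1 held most of it. Their means at 1 mM were 816 CPM for Cav1, 132 for Emp2, 76.2 for Pdpn and 13.15 for Hopx. Rtkn2 stood at 7.6, Ager at 1.09 and Aqp5 at 0.53 CPM, so passing the filter does not show a type I profile. Of 8 endothelial markers 0 passed and of 8 leukocyte markers 1 did. By group means 8 of the 12 mesenchymal markers were higher at 4 mM and 4 lower, and their part in the results was not tested.

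At 4 h, 51 of 52 mitosis genes were lower and 18 of 24 integrated stress response regulators higher in 4 mM than in 1 mM. Calls in smaller part of a list, mostly higher, were found for amino acid transporters (9 of 20), enzymes of amino acid synthesis and folate (12 of 27) and lysosomal genes (21 of 45). Of 13258 genes tested, 3278 were called at adjusted p under 0.05 in the quasi-likelihood test of edgeR, adjusted by the Benjamini-Hochberg method, which is 24.7%. Of these, 1532 were higher at 4 mM (11.6% of the genes tested) and 1746 lower (13.2%). Most shifts were small: 181 of the called genes were at least 2-fold higher and 57 at least 2-fold lower, and the median log2 fold change of all genes tested was 0.0046. Against vehicle, 1305 genes (9.84%) were called at 1 mM, 4.48% of the genes tested higher and 5.36% lower, and 5113 (38.6%) at 4 mM, 19.5% higher and 19.1% lower. The first count was 703 or 669 without library a or c of vehicle and 819 or 731 without library a or b of 1 mM. Those comparisons share libraries with the step, so their values are set beside it and not counted as separate evidence. Of the 27 gene lists described, the mitosis list had the lowest median, -0.62, and the list of integrated stress response regulators the highest, 0.60.

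**Figure D1:**
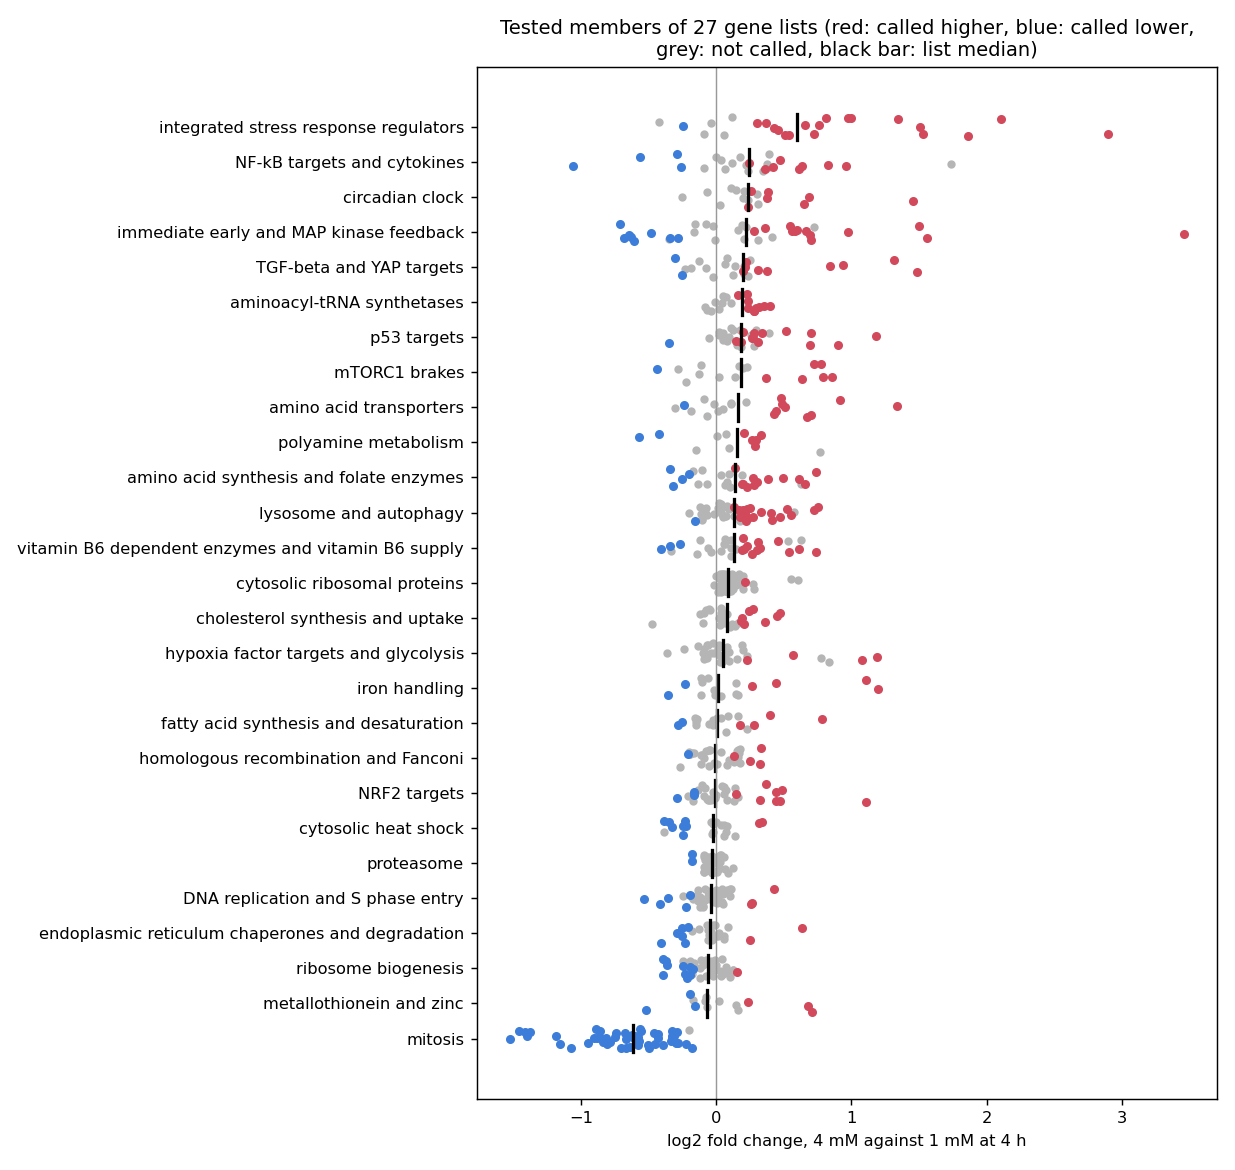
Log2 fold change of 4 mM against 1 mM at 4 h (horizontal axis) for every tested member of 27 gene lists (rows, ordered by median). Red points were called higher, blue points called lower and grey points not called by edgeR's quasi-likelihood test, and black bars are list medians. The mitosis list lies left of 0 with 51 of 52 members called lower, and the list of integrated stress response regulators reaches furthest right by its median, 0.60.

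Genes of mitosis fell almost without exception. All 52 members passed the filter on low counts, 51 were lower at 4 mM than at 1 mM, 0 were higher, and 8 fell at least 2-fold. The median log2 fold change was -0.62, against 0.0046 over all genes tested, where 13.2% were called lower. The member not called was Cenpw, a centromere protein gene, at -0.20 ± 0.10 (SE). In bulk RNA, fewer cells in mitosis and less RNA per cell cannot be told apart.

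Plk1, a kinase that starts and orders mitosis, was measured at 95.2, 96.7 and 90.4 CPM in the 3 libraries of 1 mM and at 34.2, 33.6, 36.5, 32.3 and 35.2 CPM in the 5 of 4 mM. Every library of 4 mM lay under every library of 1 mM, and the latter lay under the 3 vehicle libraries, at 149, 172 and 158 CPM. The log2 fold change of the step was -1.46 ± 0.06 (SE, adjusted p = 1.87e-16, edgeR). Cenpf, a large kinetochore protein gene, stood at 155, 168 and 181 CPM at 1 mM and at 51.8, 59.0, 58.9, 59.1 and 63.4 CPM at 4 mM, a log2 fold change of -1.52 ± 0.11 (adjusted p = 2.85e-11, edgeR). Aurka, the kinase of the spindle poles, went from 94.4, 102 and 94.9 to 33.6, 36.8, 34.5, 39.3 and 38.3 CPM, a log2 fold change of -1.41 ± 0.07. Kif14, a kinesin motor of the last step of cell division, went from 52.7, 58.9 and 62.4 to 19.8, 21.8, 22.4, 21.6 and 24.6 CPM (-1.40 ± 0.12 on the log2 scale). Again no library of 4 mM reached any of 1 mM. Ccnb1, which encodes cyclin B1, the partner of the mitotic kinase CDK1, was at 195, 192 and 196 CPM at 1 mM and at 83.5, 82.7, 82.5, 91.7 and 87.8 CPM at 4 mM, a log2 fold change of -1.18 ± 0.05. Aspm, a spindle pole gene that is mutated in microcephaly, changed by -1.38 ± 0.14 on the log2 scale.

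The sequences before 3 of these genes are shown as a description. Of the 52 mitosis genes, 43 matched a RefSeq promoter window of 300 bases (250 before to 50 after the start, build GRCm38.p6, the first start listed for a gene). CHR, with the letters TTTGAA, was searched with its variant TTCGAA on both strands. The variant reads the same on both strands, and both motifs can stand in 1 window. CHR or the variant was found in 32 of the 43 windows, or 74.4%, against 13.8% of the 9616 windows of tested genes and 19.4% of all 27025. The CCAAT box, with the letters CCAAT on either strand, was in 34 of 43, or 79.1%, against 39.6% of the windows of tested genes. In the 3 windows below, read on the strand of the gene, capitals mark CHR (TTTGAA) and CCAAT. The window of Plk1 spans chr7:122159185-122159484 on the plus strand, that of Cenpf chr1:189688037-189688336 on the minus strand and that of Aurka chr2:172370521-172370820 on the minus strand.
Plk1: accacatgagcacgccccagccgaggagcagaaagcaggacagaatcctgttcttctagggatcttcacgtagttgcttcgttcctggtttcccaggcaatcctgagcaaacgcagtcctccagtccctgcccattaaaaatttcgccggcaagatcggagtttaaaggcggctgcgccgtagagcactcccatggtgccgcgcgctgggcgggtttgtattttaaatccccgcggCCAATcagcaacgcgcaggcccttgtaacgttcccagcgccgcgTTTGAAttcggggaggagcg
Cenpf: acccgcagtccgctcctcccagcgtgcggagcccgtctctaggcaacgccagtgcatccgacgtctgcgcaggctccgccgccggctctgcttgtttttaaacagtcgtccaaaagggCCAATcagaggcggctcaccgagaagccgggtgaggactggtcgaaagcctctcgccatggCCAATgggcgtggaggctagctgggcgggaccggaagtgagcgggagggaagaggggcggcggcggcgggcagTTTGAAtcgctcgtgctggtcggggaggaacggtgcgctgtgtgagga
Aurka: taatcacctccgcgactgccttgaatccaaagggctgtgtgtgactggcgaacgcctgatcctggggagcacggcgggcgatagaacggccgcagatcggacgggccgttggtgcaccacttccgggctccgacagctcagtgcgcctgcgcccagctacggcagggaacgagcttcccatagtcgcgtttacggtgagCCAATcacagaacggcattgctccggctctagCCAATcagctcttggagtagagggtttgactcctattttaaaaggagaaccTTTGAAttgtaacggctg
Each of the 3 holds 1 CHR close to the start and at least 1 CCAAT before it. Ccnb1 fell as well, and its listed window holds 2 CCAAT boxes and no CHR. A match of letters is a description and not a bound site.

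Already at 1 mM, 33 of the 52 mitosis genes were lower than in vehicle and 0 higher, with a median log2 fold change of -0.30, and at 4 mM 51 were lower, with a median of -0.94. Over all genes tested, 710 (5.36%) differed between the step from 1 to 4 mM and that from 0 to 1 mM, by a test of the difference itself. Among the 52 mitosis genes 21 did, all with the larger fall in the step from 1 to 4 mM, which spans 3 mM where the step below spans 1 mM. For Cenpf this difference was -1.12 ± 0.20 (adjusted p = 0.00104, edgeR) and for Aurka -0.9998 ± 0.12 on the log2 scale. Among genes outside the list, Pif1, a DNA helicase, fell furthest of the described genes, from 24.9, 24.4 and 27.2 CPM to 6.31, 6.07, 5.12, 5.62 and 5.94 CPM. Vehicle stood at 39.0, 42.7 and 39.0 CPM, and the 3 groups did not overlap. Its log2 fold change was -2.13 ± 0.08 for the step (adjusted p = 1.45e-17, edgeR). Arhgef39 (-1.48 ± 0.15), Depdc1b (-1.42 ± 0.13) and Sapcd2 (-1.18 ± 0.12), 3 other genes outside the list, were also among the 15 largest falls.

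Genes of S phase did not move in this way. Of 46 tested genes of DNA replication and S phase entry 3 were higher and 5 lower, with a median of -0.039 on the log2 scale. Without library c of 1 mM 3 were lower, and with only the 4 h libraries in the fit 9 were. In the main fit 6.52% of this list were higher and 10.9% lower, against 11.6% and 13.2% of all genes tested. Cdt1, a licensing factor that loads the replicative helicase, rose from 70.7, 66.2 and 62.4 to 96.8, 89.2, 87.2, 89.3 and 84.6 CPM, a log2 fold change of 0.43 ± 0.07. Orc2, a subunit of the origin recognition complex, fell from 54.8, 56.2 and 55.7 to 43.2, 42.2, 44.3, 44.1 and 43.1 CPM (-0.36 ± 0.05), and Cdc25a, the phosphatase that activates CDK2, by a log2 fold change of -0.42 ± 0.08. Of 32 homologous recombination and Fanconi genes 4 were higher (12.5%, against 11.6% of all genes) and 1 lower, with a median of -0.0052. The count called higher was 1 without library a of 1 mM, 2 without library c of 1 mM and 8 with only both groups in the fit. Against vehicle 6 of the 32 were higher and 0 lower at 1 mM, and 16 were higher and 1 lower at 4 mM. Mus81, a nuclease of stalled forks, had a log2 fold change of 0.33 ± 0.08.

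**Figure D2:**
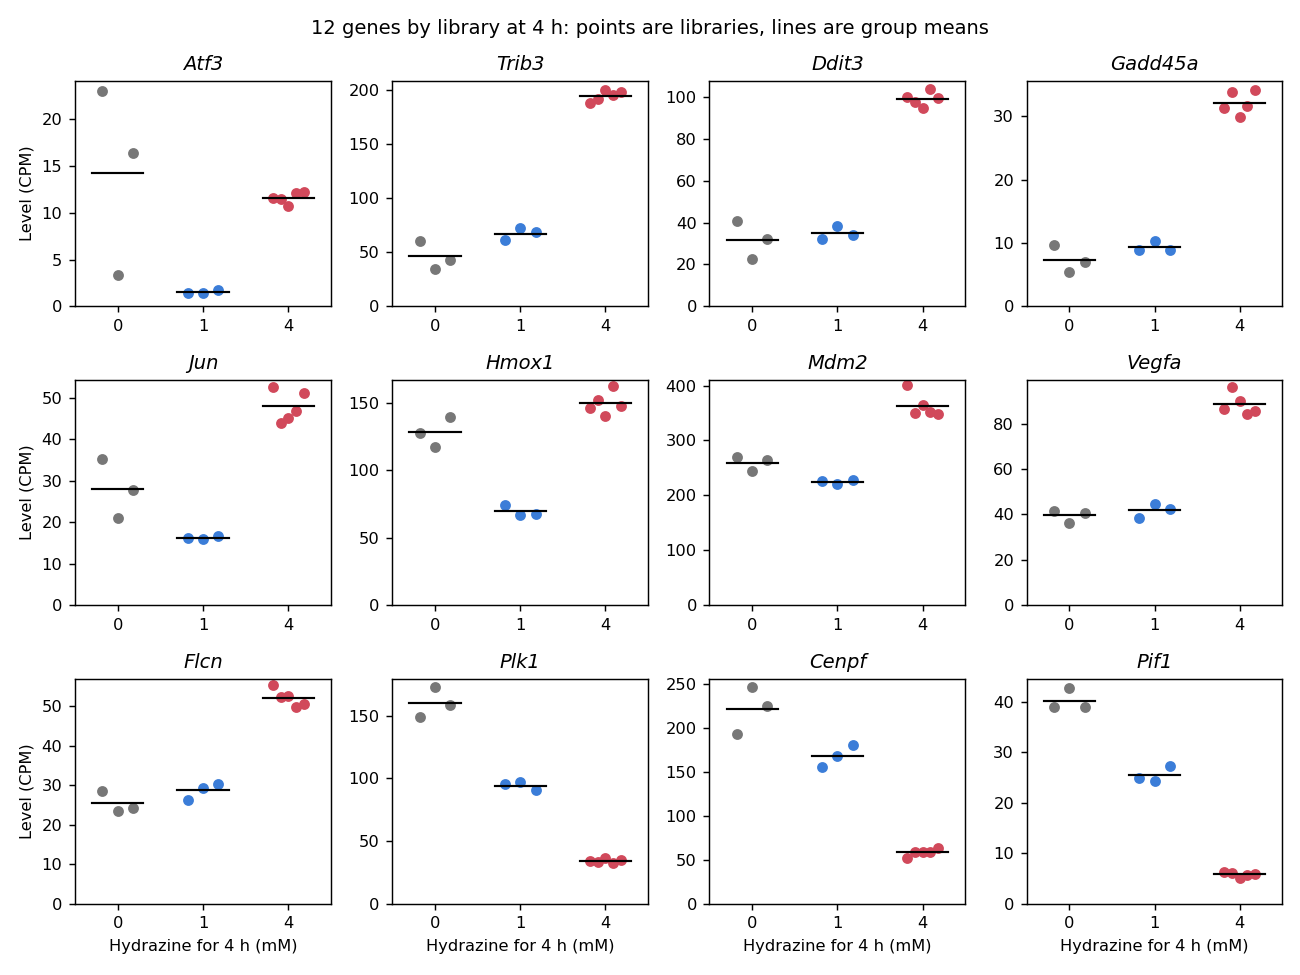
Level in CPM (vertical axes, each from 0) of 12 genes in the 3 vehicle, 3 1 mM and 5 4 mM libraries at 4 h. Points are libraries and black lines group means. For all 12 genes every 4 mM library lies on 1 side of every 1 mM library. For Atf3, Jun, Hmox1 and Mdm2 the 1 mM libraries lie below both the vehicle and the 4 mM libraries. For Plk1 and Pif1 they lie below the vehicle libraries and above those of 4 mM.

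The integrated stress response list moved in the opposite direction. Of 24 regulators and effectors, all tested, 18 rose, 1 fell and 5 were not called, with a median log2 fold change of 0.60 and 6 at least 2-fold higher. The share called higher was 75.0%, against 11.6% of all genes, and that called lower 4.17%, against 13.2%. Trib3, which encodes a pseudokinase induced by ATF4 and CHOP, was at 60.9, 72.6 and 68.5 CPM at 1 mM and at 188, 192, 200.2, 196 and 198 CPM at 4 mM. Vehicle libraries held 60.8, 34.3 and 43.2 CPM, below both doses. The separation of vehicle from 1 mM was narrow, with vehicle library a at 60.8 CPM beside a 1 mM library at 60.9 CPM. Its log2 fold change for the step was 1.53 ± 0.15 (adjusted p = 2.17e-08, edgeR). Ddit3, the gene of CHOP, stood at 32.3, 38.1 and 34.0 CPM at 1 mM and at 99.9, 97.5, 94.8, 104 and 99.5 CPM at 4 mM, a log2 fold change of 1.51 ± 0.13 (adjusted p = 1.22e-09, edgeR). Vehicle, at 40.6, 22.7 and 32.1 CPM, overlapped with 1 mM, and against it Ddit3 at 1 mM was not called (0.13 ± 0.15, adjusted p = 0.678, edgeR). Gadd45a, a growth arrest gene outside the list that both stress branches induce, stood at 8.88, 10.3 and 8.91 CPM and then at 31.4, 33.8, 29.9, 31.6 and 34.1 CPM, a log2 fold change of 1.78 ± 0.14.

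Atf3, a stress transcription factor of the ATF family, had the largest rise among genes of at least 5 CPM, from 1.41, 1.42 and 1.78 CPM at 1 mM to 11.6, 11.5, 10.7, 12.1 and 12.3 CPM at 4 mM. Both groups were tight and far apart, with a log2 fold change of 2.90 ± 0.39 (adjusted p = 4.25e-06, edgeR). Vehicle was neither: its libraries a, b and c held 23.0, 3.32 and 16.4 CPM, so that 4 mM lay within the vehicle range (-0.28 ± 0.28 against vehicle, adjusted p = 0.452, edgeR), and 1 mM was the lowest of the 3 groups. Fgf21, a starvation hormone gene, was near the detection limit at 0.581, 0.375 and 0.799 CPM at 1 mM and reached 2.42, 2.48, 2.60, 2.72 and 2.72 CPM at 4 mM (2.10 ± 0.31 on the log2 scale). Gdf15, a stress cytokine gene, went from 0.415, 0.375 and 0.123 to 1.27, 1.10, 1.04, 0.865 and 1.13 CPM (1.86 ± 0.36). Both are low levels with few reads behind them. Atf4 itself, named here outside the naming rule because it heads the pathway, stood at 372 ± 25.4 CPM (SD, n = 3) at 1 mM and 654 ± 30.8 CPM (SD, n = 5) at 4 mM, a log2 fold change of 0.81 ± 0.07. The member that fell was Eif2ak1, the heme-sensing kinase of the family, from 43.9, 42.6 and 42.0 to 36.3, 36.8, 34.8, 35.6 and 37.2 CPM (-0.24 ± 0.05).

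Cytosolic aminoacyl-tRNA synthetases, which charge tRNAs and are known targets of ATF4, had small changes. Of 20 tested 11 were higher (55.0%, against 11.6% of all genes), 0 lower and 9 not called, with a median log2 fold change of 0.19. Cars, for cysteine, was at 124, 125 and 117 CPM at 1 mM and at 163, 166, 159, 154 and 162 CPM at 4 mM (0.40 ± 0.06 on the log2 scale). Aars, for alanine, was at 506, 522 and 498 CPM and then at 652, 672, 632, 649 and 643 CPM, a log2 fold change of 0.35 ± 0.04 (adjusted p = 5.52e-07, edgeR). The groups did not overlap in either. Against vehicle 0 of the 20 were higher and 1 lower at 1 mM, and 10 were higher and 1 lower at 4 mM.

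The C/EBP-ATF response element (CARE), to which ATF4 binds with C/EBP partners, was searched as TGATGNAA on both strands, N being any base. It was found in 5 of 22 windows of the regulators, or 22.7%, in 5 of 12 of the synthetases, or 41.7%, and in 3 of 21 of the amino acid and folate enzymes, or 14.3%, against 2.09% of the 9616 windows of tested genes and 4.06% of all 27025. The windows of 3 genes that rose are shown, with CARE in capitals. Here it reads on the opposite strand as TTNCATCA. They span chr1:191183284-191183583 on the minus strand for Atf3, chr2:152344011-152344310 on the minus strand for Trib3 and chr8:111033592-111033891 on the plus strand for Aars.
Atf3: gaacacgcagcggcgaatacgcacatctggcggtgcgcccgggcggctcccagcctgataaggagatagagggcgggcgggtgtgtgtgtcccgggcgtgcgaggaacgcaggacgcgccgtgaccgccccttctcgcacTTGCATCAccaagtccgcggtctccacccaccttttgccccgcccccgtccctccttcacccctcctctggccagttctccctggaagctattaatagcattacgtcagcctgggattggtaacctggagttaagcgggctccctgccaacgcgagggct
Trib3: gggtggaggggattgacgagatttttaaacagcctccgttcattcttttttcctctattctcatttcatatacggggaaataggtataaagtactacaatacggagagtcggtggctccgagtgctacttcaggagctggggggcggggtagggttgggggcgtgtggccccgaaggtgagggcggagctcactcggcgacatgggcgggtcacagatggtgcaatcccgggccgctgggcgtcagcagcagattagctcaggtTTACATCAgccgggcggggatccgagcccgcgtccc
Aars: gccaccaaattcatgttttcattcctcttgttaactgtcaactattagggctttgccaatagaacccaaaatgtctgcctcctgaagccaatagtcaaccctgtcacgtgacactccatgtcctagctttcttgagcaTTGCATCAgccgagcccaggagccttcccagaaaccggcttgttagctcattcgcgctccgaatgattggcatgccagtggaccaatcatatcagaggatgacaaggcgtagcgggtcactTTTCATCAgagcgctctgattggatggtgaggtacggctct
The windows of Atf3 and Trib3 hold 1 match each and that of Aars holds 2. Ddit3 rose as far as Trib3 and its listed window holds 0, which says only that these letters are not in it.

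Of 20 tested amino acid transporters 9 were higher and 1 lower, with a median log2 fold change of 0.16. Slc38a7, which moves glutamine out of lysosomes, was at 24.0, 25.2 and 21.4 CPM at 1 mM and at 43.2, 47.7, 46.6, 41.8 and 42.3 CPM at 4 mM (0.91 ± 0.09, adjusted p = 1.92e-09, edgeR). Slc6a9, the glycine transporter GLYT1, went from 25.2, 28.2 and 26.2 to 43.9, 44.8, 39.3, 44.7 and 43.2 CPM (0.70 ± 0.08), and Slc1a4, a carrier of small neutral amino acids, changed by 0.67 ± 0.06. Groups were separate for all 3. Slc7a6, an exchanger of cationic and neutral amino acids, fell from 152, 151 and 149 to 130.5, 128, 125, 129 and 127 CPM (-0.24 ± 0.04).

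Of 27 enzymes of amino acid synthesis and the folate cycle 12 were higher and 4 lower, with a median of 0.14. Shares were 44.4% and 14.8%, against 11.6% and 13.2% of all genes. Mthfd2, of the mitochondrial folate cycle, stood at 109, 117 and 118 CPM at 1 mM and at 177, 180, 200, 178 and 175 CPM at 4 mM (0.66 ± 0.06, adjusted p = 2.87e-09, edgeR). Cth, the last enzyme of cysteine synthesis, which uses vitamin B6, changed by 0.74 ± 0.15 on the log2 scale. Mat2a, which makes the methyl donor S-adenosylmethionine, moved the other way, from 183, 179.6 and 205 to 159.6, 153, 161, 142 and 144 CPM (-0.32 ± 0.06), and its 3 vehicle libraries, at 269, 270.1 and 275 CPM, lay above both. In the list of vitamin B6 dependent enzymes and B6 supply, part of which is in the previous list, 12 of 30 tested were higher and 3 lower (median 0.13), and 1 was lower without library a or b of 1 mM. Gpt2, the mitochondrial alanine transaminase, a B6 enzyme, went from 67.5, 81.6 and 74.3 to 109.7, 117, 114, 119 and 111 CPM (0.62 ± 0.08).

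In polyamine metabolism 5 of 12 tested genes were higher and 2 lower (41.7% and 16.7%, against 11.6% and 13.2% of all genes). Without library c of 1 mM 2 were higher. Amd1, which makes the aminopropyl donor for spermidine, fell from 207, 212 and 201 to 131, 149, 124, 151 and 142 CPM (-0.57 ± 0.06, adjusted p = 3.17e-08, edgeR), while Odc1, the first enzyme of the pathway, rose from 516, 486 and 499 to 592, 585, 636, 621 and 581 CPM (0.27 ± 0.05). Oaz2, an antizyme that restrains ODC1, fell by a log2 fold change of -0.42 ± 0.07.

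Of 16 tested regulators of the growth kinase mTORC1 6 were higher, 1 lower and 9 not called, with a median of 0.18. Shares were 37.5% higher and 6.25% lower, against 11.6% and 13.2% of all genes. Of the 4 largest rises, 3 were members of the folliculin complex, which acts on the RagC and RagD GTPases at the lysosome. Flcn was at 26.4, 29.4 and 30.3 CPM at 1 mM and at 55.4, 52.5, 52.7, 49.7 and 50.5 CPM at 4 mM, a log2 fold change of 0.86 ± 0.07 (adjusted p = 1.26e-10, edgeR). Its partner Fnip1 was at 47.0, 43.0 and 47.5 and 76.2, 77.3, 72.6, 81.3 and 84.0 CPM (0.77 ± 0.09) and the other partner, Fnip2, at 14.02, 16.2 and 15.2 and 27.2, 27.1, 28.6, 22.7 and 25.8 CPM (0.79 ± 0.12). None of the 3 overlapped between doses, and at 1 mM none was called against vehicle (log2 fold changes of 0.18, 0.21 and -0.13). Sesn2, the leucine sensor sestrin 2, changed by 0.73 ± 0.07.

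Of 45 tested lysosome and autophagy genes 21 were higher, 1 lower and 23 not called, a share of 46.7% higher against 11.6% of all genes, with a median of 0.13. Mcoln1, the calcium channel of lysosomes, was at 15.2, 17.2 and 17.6 CPM at 1 mM and at 27.5, 29.9, 29.5, 22.4 and 29.0 CPM at 4 mM (0.73 ± 0.09, adjusted p = 1.69e-07, edgeR). Atg14, which directs the autophagy lipid kinase, went from 10.4, 8.99 and 9.15 to 15.7, 15.0, 14.8, 16.3 and 18.1 CPM (0.75 ± 0.10), and Gaa, the lysosomal glucosidase, from 38.9, 43.5 and 36.4 to 62.5, 55.9, 55.3, 53.3 and 57.2 CPM (0.52 ± 0.06). Against vehicle 2 of the 45 were higher and 3 lower at 1 mM, near the share of all genes, and 23 were higher and 4 lower at 4 mM.

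Of 32 tested targets of p53, 13 were called higher, 1 lower and 18 not called, with a median of 0.18 and 1 gene at least 2-fold higher. The share called higher was 40.6%, against 11.6% of all genes tested, and that called lower 3.12%, against 13.2%. A positive log2 fold change, called or not, was found in 30 of the 32. Mdm2, the ubiquitin ligase that restrains p53, was at 227, 219.7 and 228 CPM at 1 mM and at 401, 351, 365, 352 and 349 CPM at 4 mM (0.69 ± 0.05, adjusted p = 1.42e-11, edgeR). In vehicle it was at 270.1, 244 and 265 CPM, above all 3 libraries of 1 mM. Fas, a death receptor, stood at 14.7, 15.1 and 16.4 CPM and then at 27.5, 28.9, 28.1, 31.4 and 27.97 CPM (0.90 ± 0.09). Polk, a translesion polymerase, went from 46.2, 42.6 and 48.9 to 75.9, 76.0, 79.0, 70.6 and 71.5 CPM (0.70 ± 0.10), and Pmaip1, the BH3 protein NOXA, from 2.24, 2.02 and 2.21 to 4.91, 4.27, 4.25, 6.49 and 4.53 CPM (1.18 ± 0.21). Groups were separate for all of these. The gene that fell was Ckap2, a spindle protein gene, by a log2 fold change of -0.35 ± 0.06.

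Immediate early genes, which mitogens and stress switch on within minutes, and feedback genes of the ERK kinase pathway split. Of 35 tested 13 were higher and 8 lower (37.1% and 22.9%, against 11.6% and 13.2% of all genes). Jun, a subunit of the AP-1 factor, was at 16.1, 15.9 and 16.7 CPM at 1 mM and at 52.5, 43.9, 45.1, 46.9 and 51.2 CPM at 4 mM (1.56 ± 0.11, adjusted p = 1.74e-11, edgeR). Dusp1, a phosphatase of stress-activated kinases, stood at 7.47, 9.29 and 8.29 CPM and then at 21.5, 24.5, 20.6, 27.1 and 24.4 CPM (1.499 ± 0.11), and Jund, another AP-1 subunit, changed by 0.97 ± 0.16. No library of 4 mM overlapped with 1 mM for Jun or Dusp1. The falls were led by genes of the ERK pathway. Dusp6, the phosphatase of ERK, was at 85.5, 81.5 and 90.1 CPM at 1 mM and at 62.5, 56.1, 63.5, 48.1 and 46.9 CPM at 4 mM (-0.63 ± 0.10, adjusted p = 2.67e-05, edgeR), with libraries d and e the lowest of 4 mM. Etv5, a transcription factor downstream of ERK, fell from 14.9, 19.4 and 18.6 to 13.2, 9.10, 14.2, 10.7 and 8.55 CPM (-0.68 ± 0.15). Spry4 (-0.65 ± 0.15) and Spred3 (-0.71 ± 0.13), inhibitors of the pathway, fell as well.

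At 1 mM the same list had been lower than in vehicle, with 18 of 35 called lower, 0 higher and a median of -0.45. Against vehicle at 4 mM 6 were higher and 19 lower. Of all genes 5.36% were lower at 1 mM, and 19.5% higher and 19.1% lower at 4 mM. The step from 1 to 4 mM was the more positive of both steps in 17 of the 35 by the test of the difference, against 2.5% of all genes. Jun had a value of 2.35 ± 0.22 there (adjusted p = 1.03e-07, edgeR), since vehicle stood at 35.3, 21.1 and 27.8 CPM, above 1 mM and below 4 mM. Dusp5, the nuclear ERK phosphatase, stood at 25.7, 12.9 and 23.1 CPM in vehicle, 7.80, 7.12 and 8.05 CPM at 1 mM and 14.6, 11.4, 13.02, 10.8 and 12.4 CPM at 4 mM, so the mean of 4 mM lay between, though vehicle library b lay among its libraries (2.12 ± 0.32, adjusted p = 0.000137, edgeR). Mmp13, a collagenase gene, had the same order of means, with 34.2, 8.68 and 25.6, 4.81, 5.84 and 7.13 and 17.8, 9.10, 17.3, 11.4 and 10.5 CPM. In Atf3, Jun, Dusp5 and Mmp13, vehicle library b was the lowest of the 3 vehicle libraries, the one that also lay apart on the second principal component. Leaving it out raised the number of genes that differed between the steps from 710 to 867, whereas leaving out vehicle library a or c gave 404 or 418, and leaving out any library of 1 mM 266 to 318.

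**Figure D3:**
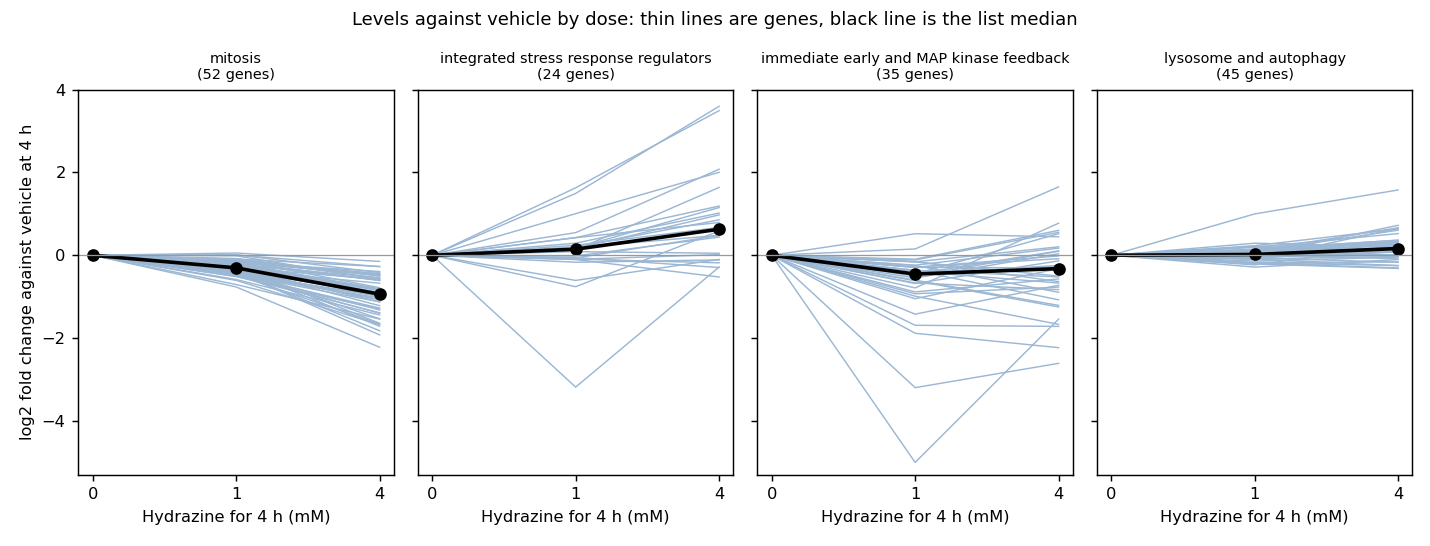
Log2 fold change against vehicle at 4 h (vertical axis) by dose in mM (horizontal axis, evenly spaced) for the tested members of 4 gene lists, as thin lines, with the list median in black; vehicle is 0 by construction. The mitosis median falls at each dose to -0.94, the stress response median reaches 0.63 at 4 mM, the immediate early median is -0.45 at 1 mM and -0.32 at 4 mM, and the lysosome median reaches 0.16.

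Targets of NRF2, the factor that answers oxidants, did not move together: 8 of 34 tested were higher and 3 lower (1 lower without library a of 1 mM), with a median of -0.0072. In the main fit 23.5% of this list were higher and 8.82% lower, against 11.6% and 13.2% of all genes tested. Hmox1, the enzyme that breaks down heme, stood out with 74.0, 66.9 and 68.0 CPM at 1 mM and 146, 152, 140.2, 163 and 148 CPM at 4 mM (1.11 ± 0.06, adjusted p = 7.50e-15, edgeR). Vehicle was at 128, 118 and 139 CPM, above every library of 1 mM, and the level at 4 mM passed vehicle by a log2 fold change of 0.22 ± 0.05. Gclc, which starts glutathione synthesis, rose from 93.8, 88.2 and 85.9 to 117, 123, 122, 132 and 130.2 CPM (0.48 ± 0.09), and Ftl1, the ferritin light chain, by 0.45 ± 0.10. Txnrd1, thioredoxin reductase, fell from 340.1, 329 and 329 to 276, 271, 289.8, 265 and 261 CPM (-0.29 ± 0.06). The metallothionein Mt1 was at 48.6, 52.7 and 43.9 CPM and then at 96.6, 69.8, 84.2, 78.1 and 67.4 CPM (0.71 ± 0.19, adjusted p = 0.00819, edgeR), and its call ended without library c of 1 mM (adjusted p = 0.0517, edgeR).

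Among chaperones more genes were called lower than higher, and most were not called. Shares called lower were 23.1% of the endoplasmic reticulum list and 33.3% of the heat shock list, against 13.2% of all genes. Shares called higher were 7.69% and 9.52%, against 11.6%. Of 26 tested genes of endoplasmic reticulum folding and degradation 2 were higher and 6 lower (2 lower without library c of 1 mM), with a median of -0.047, and of 21 cytosolic heat shock genes 2 were higher and 7 lower, with a median of -0.025. Herpud1, a degradation factor of the endoplasmic reticulum that ATF4 can also induce, rose from 124, 137 and 131 to 199.8, 202, 204, 215 and 197 CPM (0.64 ± 0.06, adjusted p = 8.64e-10, edgeR). Dnajc3, a cochaperone of the same compartment, fell from 201, 202 and 210.2 to 153, 152, 162, 155 and 150.5 CPM (-0.41 ± 0.05). Dnaja1, a cytosolic HSP40, fell from 256, 252 and 252 to 195, 178, 195, 203 and 198 CPM (-0.39 ± 0.05, adjusted p = 2.25e-07, edgeR). Of 34 proteasome genes 0 were higher and 2 lower, and of 77 cytosolic ribosomal protein genes 1 was higher and 0 lower. The ribosomal count was 0 without any 1 library of 1 mM or library d of 4 mM, and 16 with only the 4 h libraries or 19 with only both groups in the fit. Of 40 ribosome biogenesis genes 1 was higher and 10 lower (4 lower without library c of 1 mM). In the main fit 25.0% of them were lower, against 13.2% of all genes. Among them Ubtf, a factor of RNA polymerase I, fell from 219, 216 and 208 to 169.6, 160, 159, 166 and 160.2 CPM (-0.40 ± 0.05), and Tsr1, which matures the small subunit, by a log2 fold change of -0.37 ± 0.06. Against vehicle 22 of the 40 biogenesis genes were already lower and 0 higher at 1 mM (median -0.28), and 27 were lower and 0 higher at 4 mM.

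Of 36 hypoxia and glycolysis genes 4 were higher and 0 lower, and the 11.1% called higher was near the 11.6% of all genes tested. Vegfa, the vascular growth factor, was at 38.6, 44.6 and 42.3 CPM at 1 mM and at 86.5, 96.3, 89.8, 84.4 and 85.4 CPM at 4 mM (1.08 ± 0.07, adjusted p = 2.02e-12, edgeR), and Ndrg1, a stress-induced gene, at 38.4, 34.8 and 36.3 and 82.2, 83.1, 85.2, 84.6 and 81.9 CPM (1.19 ± 0.11). Both groups were separate for either gene. The glycolytic enzymes were not among the calls: Ldha, lactate dehydrogenase, had a value of -0.07 ± 0.08 and Pgk1, phosphoglycerate kinase, of -0.03 ± 0.08. Vegfa is also a known target of ATF4.

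Other lists held smaller sets of calls. Of 25 NF-kB targets and cytokines 8 were higher and 4 lower. Nfkb2, the p100 subunit, rose from 62.3, 67.3 and 64.8 to 106, 100.2, 99.0, 94.3 and 96.1 CPM (0.61 ± 0.06, adjusted p = 9.20e-10, edgeR), and Nfkbia, the inhibitor of NF-kB, from 16.3, 16.3 and 16.2 to 25.1, 24.9, 25.7, 23.7 and 27.1 CPM (0.64 ± 0.09). Il33, an alarmin cytokine, fell from 106, 105 and 97.3 to 48.8, 49.4, 43.1, 54.2 and 51.3 CPM (-1.06 ± 0.11, adjusted p = 4.70e-08, edgeR). Of 24 TGF-beta and YAP targets 9 were higher and 2 lower (37.5% and 8.33%). Ccn2, a matrix protein and YAP target, was at 391, 413 and 478 CPM at 1 mM and at 1260, 1019, 1328, 853 and 848 CPM at 4 mM (1.31 ± 0.23, adjusted p = 0.000142, edgeR). The groups were separate, and libraries a and c were the highest of 4 mM. Of 17 clock genes 7 were higher (41.2%) and 0 lower, with a median of 0.24. Rora, a nuclear receptor of the clock, was at 2.57, 2.25 and 2.15 CPM at 1 mM and at 5.61, 6.62, 6.16, 6.12 and 7.30 CPM at 4 mM (1.46 ± 0.24).

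Of 29 cholesterol genes 8 were higher (27.6%, against 11.6% of all genes) and 0 lower, but 1 was higher without library a of 1 mM. Against vehicle 14 of the 29 had been higher at 1 mM and 0 lower, where 4.48% of all genes were higher. Of 19 fatty acid genes 4 were higher and 2 lower (2 higher without library a of 1 mM). In the main fit these were 21.1% and 10.5%, against 11.6% and 13.2% of all genes. Acss2, which makes acetyl-CoA from acetate, was at 10.7, 12.1 and 12.2 CPM in vehicle, 20.2, 21.1 and 20.8 CPM at 1 mM and 33.7, 40.3, 34.7, 35.2 and 34.5 CPM at 4 mM (0.78 ± 0.10 for the step, adjusted p = 8.14e-07, edgeR). Its difference between both steps was -0.05 ± 0.20 and was not called (adjusted p = 0.948, edgeR). Of 16 iron genes 4 were higher and 2 lower (2 higher without library a of 1 mM), and of 13 metallothionein and zinc genes 3 were higher and 3 lower (0 higher without library c of 1 mM). Shares called higher were 25.0% for iron and 23.1% for zinc genes, against 11.6% of all genes. Shares called lower were 12.5% and 23.1%, against 13.2%.

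Several of the largest changes belonged to no list. Celf5, an RNA-binding protein gene best known from the brain, was at 2.06, 1.70 and 2.14 CPM in vehicle, 5.48, 7.19 and 7.62 CPM at 1 mM and 25.3, 27.9, 22.1, 25.1 and 30.9 CPM at 4 mM, with no overlap between doses. It thus rose at both steps, by 1.79 ± 0.20 and then 1.95 ± 0.14 on the log2 scale (adjusted p = 4.85e-12 for the second, edgeR), and the steps did not differ by test (0.16 ± 0.30, adjusted p = 0.86, edgeR). Tppp, a tubulin polymerization gene, went from 8.46, 8.99 and 8.66 to 28.6, 31.4, 26.3, 33.5 and 29.0 CPM (1.77 ± 0.13). Fam180a changed by 2.36 ± 0.18, Dact1, a WNT pathway gene, by 1.64 ± 0.18, and Tnfrsf11b, the decoy receptor osteoprotegerin, by 1.62 ± 0.19. Among falls, Jade2, of a histone acetyltransferase complex, was at 43.8, 43.7 and 43.8 CPM at 1 mM and at 22.4, 16.7, 25.4, 16.6 and 15.6 CPM at 4 mM (-1.19 ± 0.12, adjusted p = 3.08e-08, edgeR). Prokr1, a prokineticin receptor, stood at 2.83, 3.83 and 2.79 CPM in vehicle, 6.14, 5.17 and 5.22 CPM at 1 mM and 2.17, 2.14, 2.08, 2.29 and 2.43 CPM at 4 mM, so 1 mM was the highest group (-2.10 ± 0.38 between steps). Medag, a gene of fat cell differentiation, changed by -1.16 ± 0.11. The mitochondrial ribosomal RNA mt-Rnr2 was at 474, 978 and 472 CPM at 1 mM and at 252, 203, 424, 217 and 210.4 CPM at 4 mM, and its call ended without library b of 1 mM (-1.30 ± 0.30 with it and -0.85 without it, adjusted p = 0.0609, edgeR). Gm6206 and Gm49320, predicted genes among the 30 largest changes, are not described.

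After 20 h of washout few genes were called for the step. Of the 13258 genes 18 (0.136%) were called between 4 and 1 mM, 7 higher (0.0528%) and 11 lower (0.083%), and 1137 had an unadjusted p under 0.05. The difference of the step between the times was called for 998 genes (7.53%). Of the 3278 genes called at 4 h, 940 were among these. For the others a change of the step between times was not shown, and a missing call after washout is no proof of loss. The washout libraries are separate from those at 4 h, and 9 genes were called at both times, 8 of them in the same direction. They make up 50% of the calls after washout, where 24.7% of all genes tested were called at 4 h. Of the calls at 4 h they are 0.275%, against 0.136% of all genes called after washout. Genes called at 4 h had a median absolute log2 fold change of 0.33 there and of 0.082 after washout. They were picked by their call at 4 h, which favours large values there, so these medians do not measure a loss. The washout count moved widely, from 1 with only the libraries of that time in the fit to 66 with DESeq2, and leaving out any 1 of the 6 libraries gave 2 to 6, apart from library a of 1 mM (23). Library b of 1 mM after washout stood apart from its replicates, and 4 genes were called without it.

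Of the 52 mitosis genes 0 were called after washout, the median was 0.037, and 44 differed between times. Plk1 stood at 126, 109.8 and 109 CPM after 1 mM and at 126, 120.4 and 119 CPM after 4 mM, which overlapped (0.08 ± 0.07), and its difference between times was -1.54 ± 0.09 (adjusted p = 2.04e-12, edgeR). Of the 24 stress response regulators 0 were called and 14 differed between times. Trib3 stood at 61.0, 74.5 and 69.2 CPM and 60.3, 61.2 and 66.8 CPM (-0.12 ± 0.16), again overlapping.

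What was called after washout was a short list of other genes. Ces2e, a carboxylesterase, was at 7.04, 8.90 and 8.12 CPM after 1 mM and at 24.8, 20.7 and 23.4 CPM after 4 mM, with no overlap (1.52 ± 0.12, adjusted p = 2.78e-09, edgeR). At 4 h its step was 0.65 ± 0.12, and the later one was larger by test (-0.87 ± 0.18 for 4 h minus washout, adjusted p = 0.00154, edgeR). DESeq2 gave Ces2e no adjusted p after washout, and all other alternatives called it. Pltp, the phospholipid transfer protein, was at 38.8, 36.3 and 35.9 CPM after 1 mM and at 52.2, 56.3 and 49.0 CPM after 4 mM (0.50 ± 0.09), and its call ended without library b or c of 1 mM or library b of 4 mM. Of the 36 hypoxia and glycolysis genes 8 were lower after 4 mM than after 1 mM and 0 higher, with a median of -0.29, and 13 differed between times. The 8 became 0 without library b of 4 mM, 1 without library a or c of 4 mM or b of 1 mM, and 2 without library c of 1 mM. They were also 0 with only that time in the fit and 14 with DESeq2, alternatives added for this list after seeing the data. Bnip3, a mitophagy receptor induced by hypoxia, stood at 77.2, 94.5 and 87.5 CPM after 1 mM and at 52.4, 41.8 and 48.6 CPM after 4 mM (-0.86 ± 0.13, adjusted p = 0.00268, edgeR), while at 4 h its step was -0.09 ± 0.13. Ak4, a mitochondrial adenylate kinase, stood at 47.7, 52.0 and 49.7 and 31.0, 32.5 and 37.5 CPM (-0.56 ± 0.08), and Ldha at 1307, 1545 and 1319 and 1046, 1005 and 1018 CPM (-0.44 ± 0.08). Vehicle libraries at that time held 77.1, 101 and 56.0 CPM of Bnip3 and 1395, 1575 and 1299 CPM of Ldha, above every library of 4 mM. The calls of Bnip3 and Ldha ended without library b of 4 mM, that of Ldha also without library a or c of 4 mM or library b of 1 mM. That of Ak4 held without any 1 of these libraries. The calls of Pltp, Bnip3, Ldha and Ak4 all ended with only that time in the fit (adjusted p of 0.111 for Ak4, edgeR).

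**Figure D4:**
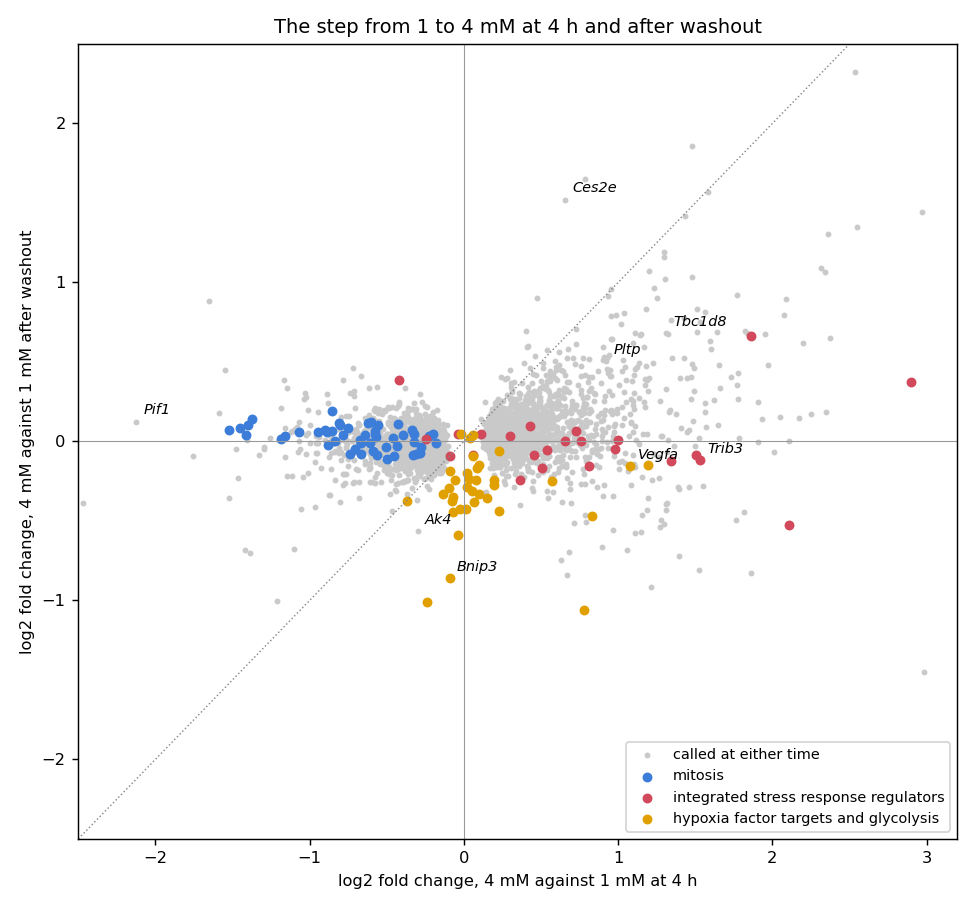
Log2 fold change of 4 mM against 1 mM at 4 h (horizontal axis) and after washout (vertical axis) for the 3287 genes called at either time, in grey, and for all tested members of 3 lists, in colour; the dotted line marks equal values and 8 genes lie outside the axes. Mitosis genes spread along the horizontal axis with a washout median of 0.037. Hypoxia and glycolysis genes have a washout median of -0.29, with 8 of 36 called lower after washout.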

How the data were processed

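FE1 cells were profiled by poly-A RNA-seq, per the labels' protocols. The authors deposited expected counts per gene, not normalized, for 32 libraries in 10 groups. The aligner, the counting tool and the genome build are not given in the sources used here. Of 49585 entries, 48174 matched a symbol in GENCODE M21 by identifier, and the others held 0.0181% of the counts.

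Expected counts were rounded to whole numbers. Genes were kept by filterByExpr of edgeR with a count minimum of 10 and a total minimum of 15, which left 13258. Libraries were scaled by TMM, and all 32 entered 1 robust quasi-likelihood fit with 1 coefficient per group, which left 22 residual degrees of freedom. Contrasts were 4 minus 1 mM at 4 h, the same after washout, their difference, the difference of neighbouring steps at 4 h, and both doses against vehicle. Adjusted p-values were computed over all tested genes of a contrast and called under 0.05; SE is the absolute log2 fold change over the square root of F. CPM uses TMM-scaled totals, except for the cell type markers, whose CPM uses unscaled library totals.

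The libraries, lists and tests were chosen with earlier results of these data known. Named genes were the 15 largest rises and falls at 5 CPM or more with separate groups, the 4 largest called rises and falls of each list, and the 6 largest in each direction of the other contrasts. Those described are mainly ones whose call held under every alternative. Lists were not tested as sets. Some genes that this rule names are not reported here.

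The fit was first tested on simulated data with known changes. Alternatives were other size factors (those of DESeq2), the Wald test of DESeq2, which gave 4 results no adjusted p, dropping the filter or the robust step, fewer groups in the fit, a replicate block, replicates a to c of 4 mM only, and each library left out. Replicate letters are shared by all groups, but deviations of the 9 same-letter pairs checked (1 with 4 mM at both times, vehicle with 1 mM at 4 h) correlated between -0.0624 and 0.0697, so letters were not taken to pair samples. Chi-square tests of counts between replicates found no duplicated library. The software was edgeR 4.0.16, with DESeq2 1.42.0 and limma 3.58.1, under R 4.3.3. Promoter windows came from RefSeq (GRCm38.p6).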

Additional observations from a re-analysis of the deposited data

Results flagged for a closer look

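In 9 of the 161 genes named for the step at 4 h, or 5.59%, 1 of the 5 libraries of 4 mM lay far from the other 4, where chance flags about 1 in 20 groups. Library c held 424 CPM of mt-Rnr2 against 203 to 252 CPM in the others, 200 CPM of Mthfd2 against 175 to 180 CPM, and 35.6 CPM of Cdc25a against 27.6 to 28.9 CPM. Library d was high for G6pdx (125.5 CPM against 117 to 118 CPM), Psmd14 (157 CPM against 139 to 142 CPM) and Rpl3 (1079 CPM against 972 to 1003 CPM). Library b held 40.3 CPM of Acss2 against 33.7 to 35.2 CPM. Library a was low for Slc1a4, at 109 CPM against 116 to 119 CPM, and library e for Sapcd2, at 3.85 CPM against 5.24 to 5.73 CPM. Of these 9 genes mt-Rnr2, G6pdx, Psmd14 and Rpl3 lost their call without at least 1 library.

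The step from 1 to 4 mM differed between the times by a test of the difference itself. On the log2 scale, 4 h minus washout, the largest positive values among called genes of at least 5 CPM were those of Atf3 (2.53), Arid5a (1.83), Gadd45a (1.76), Trib3 (1.65), Ddit3 (1.59) and the predicted gene Gm4294 (1.53). The largest negative values were those of Pif1 (-2.25), Cenpf (-1.59), Plk1 (-1.54), Aspm (-1.52), Kif14 (-1.497) and Depdc1b (-1.46). Atf3 lost this call without library a of 1 mM after washout and without the filter on low counts. Gm4294 lost it in 14 of 21 alternatives, and library d of 4 mM at 4 h held 12.2 CPM of it against 4.53 to 5.82 CPM in libraries a to c and 3.68 CPM in library e.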

How the results depend on the processing

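The 3278 genes called between 4 and 1 mM at 4 h stayed within 1.5-fold under every alternative: 2318 to 3131 with 1 library left out, 3165 with DESeq2, 3259 with DESeq2 size factors, 2565 without the filter, 4142 with libraries of the same time only and 4375 with only the groups compared. With a replicate block 2577 were called, 15 after washout, 747 between times and 655 between steps. This block is no paired analysis, since same-letter libraries did not deviate together and 0 of 9 letter pairs correlated over 0.1. The 998 genes that differed between times ran from 727 to 948 with 1 library left out. After washout, 18 became 66 with DESeq2, 28 without the filter and 1 with only that time in the fit, and 2 to 23 with 1 library left out. The difference between steps, 710, was 459 without the filter, 1249 with only the groups compared and 1151 with the same time only, and 266 to 867 with 1 library left out. The count at 1 mM against vehicle, 1305, was 2088 with only the groups compared, 1999 with the same time only and 669 to 1386 with 1 library left out. At 4 mM against vehicle, 5113, it was 4184 to 5001 with 1 library left out. The causes were not tested. Of 161 genes named for the 4 h step 111 kept their call under every alternative that gave an adjusted p and 50 lost it in at least 1; 0 changed sign. Of 12 named after washout 1 kept its call throughout, of 12 between times 10 and of 12 between steps 8. The mitosis list held between 48 and 52 members called lower. With 3 libraries of 1 mM, leaving out 1 of them moved list counts by over 1.5 times for vitamin B6, polyamine, endoplasmic reticulum, replication, recombination, NRF2, cholesterol, fatty acid, zinc, iron, ribosomal protein and ribosome biogenesis genes, among others. Over all alternatives the ribosomal protein genes called higher ran from 0 to 19, recombination genes higher from 1 to 8, replication genes lower from 3 to 9, and, after washout, hypoxia and glycolysis genes lower from 0 to 14. The cholesterol count also moved without library d of 4 mM, from 8 to 5.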
